A study of Mus musculus with 24 samples.

Results

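Livers of mice fed cholesterol together with cholic acid (Chol_CA) were compared with livers of mice on normal chow (NC) across all genes, by RNA sequencing of whole liver. The comparison rests on 8 of the 24 labelled samples of the series, 4 libraries for each of the 2 diets, chosen by the diet in the column names of the deposited count table. The mice were wild-type C57BL/6, were 8 to 10 weeks old at the start and ate their diet for 8 weeks. The Chol_CA diet held 2% cholesterol and cholic acid. Another diet of 4 libraries, cholic acid without cholesterol (CA), is set beside both because it differs from Chol_CA, as far as the labels say, by the cholesterol. The dose of cholic acid, the sex of the mice and the base feed are not given in the sources used here, so NC differs from Chol_CA by both additions and by any difference between the feeds. Libraries carry the diet and the number that the table gives them, from Chol_CA_0 to Chol_CA_3. The labels number the samples but do not say that they are separate animals, so every p-value measures the spread between these libraries.

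The liver keeps its cholesterol within limits through opposing systems. SREBP2, a membrane-bound transcription factor, switches on cholesterol synthesis and uptake when sterols are low, and LXR, a receptor for oxidized sterols, switches on sterol export when they are high. Bile acids are made from cholesterol. They return from the gut, act on the receptor FXR and shut off their own synthesis, and cholic acid, a primary bile acid, also aids the uptake of dietary cholesterol. Kupffer cells, the resident macrophages of the liver, take up lipid and debris, and recruited monocytes, stellate cells and collagen are hallmarks of an inflamed and scarring liver.

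Of 12595 genes tested, 1885 were called higher in Chol_CA than in NC (15.0%) and 1178 lower (9.35%), at an adjusted p under 0.05. Against CA, 1693 were higher (13.4%) and 983 lower (7.80%). These 4 percentages are the background for the counts of list members in this fit of all libraries. Counts from other fits below have only the totals called in those fits beside them, without the number of genes tested. No share over all genes is therefore given for them, and those list counts are a description. Large changes were mostly rises: 487 of the genes called higher rose by over 8-fold and 37 of those called lower fell by over 8-fold. The median log2 fold change over all genes tested was −0.0015 against NC and 0.021 against CA. TMM scaling centres the bulk of the genes near 0, with factors of 0.885 to 0.941 in NC and 1.10 to 1.23 in Chol_CA, so changes are relative to that bulk. Levels are given as CPM, reads of a gene per 1000000 reads of the library after TMM scaling, and errors are standard deviations over the 4 libraries of a diet for CPM and standard errors for log2 fold changes. The log2 fold change is abbreviated log2FC. CPM is not corrected for gene length and is compared between diets, not between genes.

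**Figure D1:**
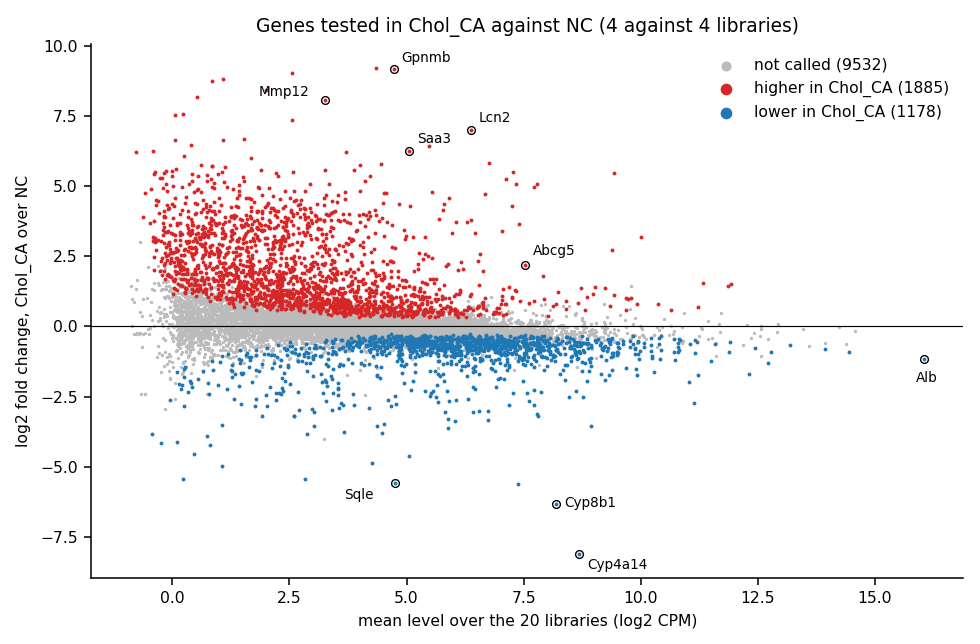
Each point is 1 of 12595 genes: the x axis is its mean level over the 20 libraries of the fit (log2 CPM), the y axis its log2 fold change in Chol_CA over NC, red for the 1885 genes called higher and blue for the 1178 called lower. The largest rises sit among genes of low mean level, and Alb, the gene of highest mean CPM, lies below 0.

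The Chol_CA libraries did not form a uniform group. For each library, a slope over transcript length was taken from each gene's log2 CPM relative to its mean over the 20 libraries. That slope served as a measure of RNA and library quality, although expression differences between libraries also enter it. The slope was negative in Chol_CA_0 (−0.105) and Chol_CA_1 (−0.355) and positive in Chol_CA_2 (0.148) and Chol_CA_3 (0.155), where the unit is log2 CPM per doubling of transcript length. It was also negative in NC_3 (−0.205) and CA_0 (−0.19). Chol_CA_0 and Chol_CA_1 also held the higher levels of most immune lists. The summed CPM of the Kupffer cell list was 2072, 3168, 1279.8 and 1222 in Chol_CA_0 to Chol_CA_3 and 195 to 269 in NC. That of the monocyte and neutrophil list was 909, 1656, 277 and 279.6 against 17.5 to 36.6, and that of the interferon-stimulated list 1328, 1639, 939 and 775 against 481 to 566. For the cell cycle list the sums were 460.2, 341, 224 and 194 against 92.1 to 175 in NC. The part of library quality in these levels was not tested. List counts are therefore also given without Chol_CA_0 and Chol_CA_1, called the negative pair below after their length trend, an alternative chosen after the data were seen. Over all genes it left 1127 higher and 622 lower against NC, and 716 higher and 522 lower against CA. Leaving out Chol_CA_2 and Chol_CA_3, the positive pair, in their place left 2377 and 1729 against NC. A further fit, the positive-trend fit, kept only libraries of positive length trend, and so left out NC_3 and CA_0 as well as the negative pair. Over all genes it gave 1577 higher and 1489 lower against NC, and 1724 higher and 1716 lower against CA. Its list counts are given where they reach at least 3 members and differ by over 1.5 times from those without the negative pair. Counts of 3 or more against CA are given without that pair where they change by over 1.5 times.

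The labels do not say on which strand reads were counted. Of the 235 genes named here 52 overlap an annotated gene on the opposite strand, among them Abcg5 and Abcg8 (with each other), Hmgcs1, Slc51b, Nr1d1 (with Thra), Psmb9 (with Tap1), Il1b and Mmp12, and their levels may include reads of that gene.

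**Figure D2:**
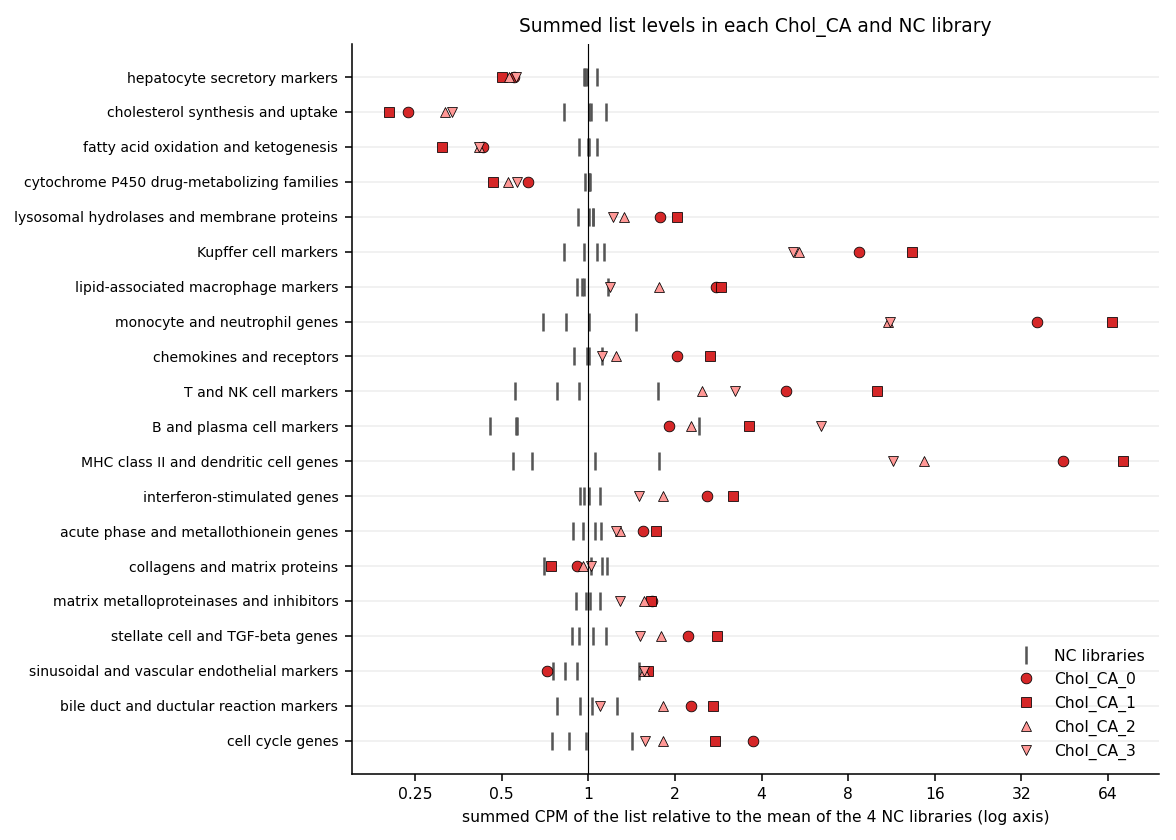
The summed CPM of 20 gene lists in each Chol_CA library (symbols) and NC library (bars), divided by the mean of the 4 NC libraries, on a log axis; abundant genes weigh most in a sum. For the monocyte and neutrophil list Chol_CA_0 and Chol_CA_1 lie above Chol_CA_2 and Chol_CA_3 and all 4 above NC, while for cholesterol synthesis all 4 lie below NC.

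**Figure D3:**
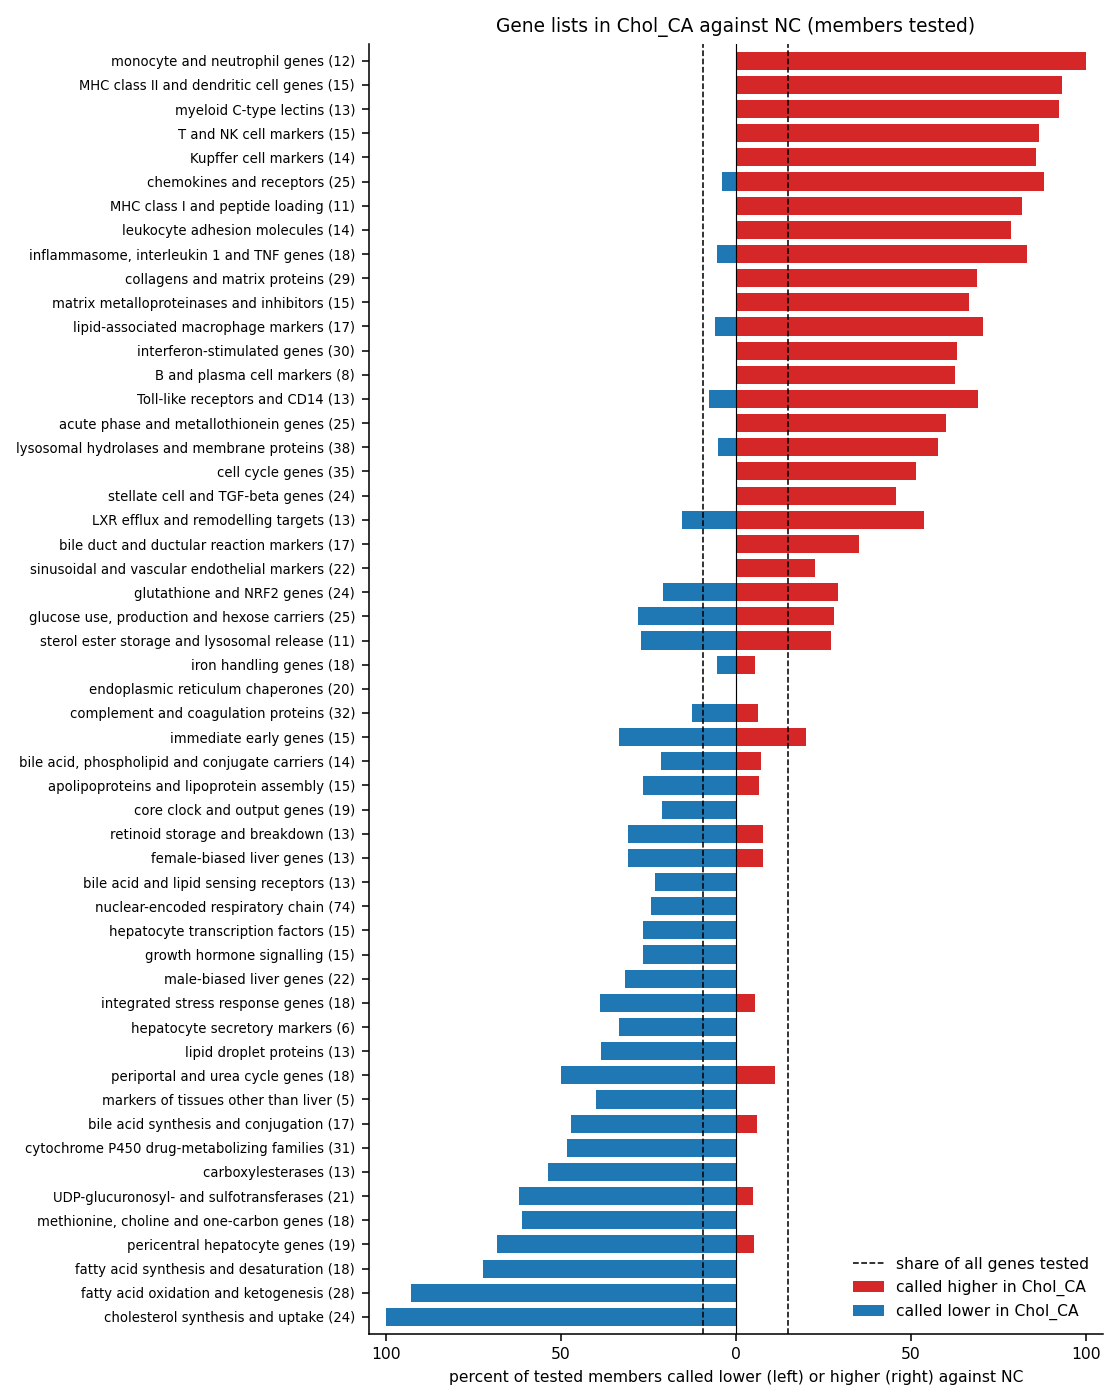
Share of the tested members of each of 53 gene lists called higher (red, right) or lower (blue, left) in Chol_CA against NC; the number of members tested is in parentheses, and the dashed lines are the shares of all genes tested, 15.0% and 9.35%. Immune lists fill the top, cholesterol synthesis and fatty acid oxidation the bottom, and edgeR called no endoplasmic reticulum chaperone. Members that passed the low-count filter through Chol_CA, where they were high, had to be higher, so the shares of lists with such members are a description.

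Cholesterol synthesis and uptake genes fell throughout the pathway. All 24 tested of the 25 genes of the list fell against NC, with a median log2 fold change of −2.38, and 23 of 24 fell without the negative pair. The remaining entry, Idi1 (isopentenyl diphosphate isomerase), did not pass the low-count filter, with 1.07 CPM in NC and 0.106 in Chol_CA. The list holds the enzymes from acetyl-CoA to cholesterol and genes of uptake and regulation. Promoters of such genes are known for elements through which SREBP2 and its partner NF-Y act, so the windows of 3 members that fell are shown, each as the 250 bases before the RefSeq start site (GRCm38.p6, in the direction of transcription). Capitals mark CCAAT or its reverse complement ATTGG, the letters bound by NF-Y, and in Hmgcs1 also TCACCCCAC, a match to the sterol response element TCACNCCAC. The windows lie at chr13:119690101-119690350 (plus strand, Hmgcs1), chr8:64733579-64733828 (minus strand, Msmo1) and chrX:72918271-72918520 (plus strand, Nsdhl).
Hmgcs1: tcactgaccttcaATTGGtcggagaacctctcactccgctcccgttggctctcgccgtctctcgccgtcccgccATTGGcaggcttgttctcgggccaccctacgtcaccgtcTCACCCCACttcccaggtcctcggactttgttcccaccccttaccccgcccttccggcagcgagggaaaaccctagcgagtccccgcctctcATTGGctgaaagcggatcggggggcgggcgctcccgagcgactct
Msmo1: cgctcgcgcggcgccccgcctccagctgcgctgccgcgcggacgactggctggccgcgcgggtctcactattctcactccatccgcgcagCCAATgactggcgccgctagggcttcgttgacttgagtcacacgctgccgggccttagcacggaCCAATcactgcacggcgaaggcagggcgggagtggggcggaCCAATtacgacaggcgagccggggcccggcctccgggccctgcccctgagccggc
Nsdhl: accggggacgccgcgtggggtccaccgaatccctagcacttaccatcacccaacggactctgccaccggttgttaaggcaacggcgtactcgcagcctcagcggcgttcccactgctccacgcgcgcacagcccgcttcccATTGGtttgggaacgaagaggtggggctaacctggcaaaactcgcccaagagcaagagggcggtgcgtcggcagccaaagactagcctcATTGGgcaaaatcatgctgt

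In the RefSeq windows of 300 bases (250 before and 50 after each start site), CCAAT on either strand occurred in 16 of the 17 members of the cholesterol list that have a window, against 41.1% of the 27025 symbols with one. TCACNCCAC on either strand occurred in 1 of the 17, Hmgcs1, against 1.44% of all symbols. Of the 17, 16 were tested and all 16 fell. The first motif starts 237, 176 and 45 bases before the start site of Hmgcs1 and the sterol element 137 before it. In Msmo1 CCAAT starts 160, 96 and 55 bases before the start. A match is a description of the letters and not evidence of binding in these livers.

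The steepest fall of the list was in Sqle, squalene epoxidase, which makes the first oxygenated sterol precursor (chromosome 15, 59315077 to 59331192). Its level was 70.7, 58.9, 71.8 and 69.2 CPM in NC_0 to NC_3, 1.88, 5.65, 1.97 and 6.799 CPM in CA_0 to CA_3 and 1.19, 0.917, 2.05 and 1.299 CPM in Chol_CA_0 to Chol_CA_3. All 4 NC libraries lay above all others, while CA and Chol_CA overlapped. Chol_CA was lower than NC (log2FC −5.59 ± 0.40, adjusted p = 2.19e-08), and its difference from CA (log2FC −1.54 ± 0.42, adjusted p = 0.0124) was lost without CA_3 (adjusted p = 0.0583, log2FC −1.22), in a fit of both diets alone (adjusted p = 0.0663, log2FC −1.55) and without the negative pair (adjusted p = 0.15, log2FC −1.24). Hmgcs1, HMG-CoA synthase (chromosome 13, 119690379 to 119708260), stood at 335, 289, 386 and 853 CPM in NC and 52.1, 44.5, 58.8 and 56.0 CPM in Chol_CA (log2FC −3.14 ± 0.30, adjusted p = 5.68e-07), with the 2 lowest values in Chol_CA_0 and Chol_CA_1. Msmo1, a sterol demethylase, fell from 152 ± 48.8 to 14.7 ± 0.572 CPM (log2FC −3.37 ± 0.22, adjusted p = 5.51e-09). Log2 fold changes of the list ranged from −5.59 to −0.98. Against CA, 12 of the 24 were lower, 4 without the negative pair and 12 in the positive-trend fit.

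Genes that export or remodel sterols under LXR mostly moved the other way. Of 13 such genes 7 rose and 2 fell against NC, and without the negative pair 8 rose and 1 fell. Abcg1, a cholesterol efflux pump that macrophages express strongly, showed the largest rise, from 1.72, 3.88, 2.33 and 4.69 CPM in the NC libraries to 62.9, 75.8, 45.9 and 39.0 in the Chol_CA libraries (log2FC 4.14 ± 0.35, adjusted p = 1.88e-07); CA stood between them at 17.6 ± 2.20 CPM. Abcg5 and Abcg8 form the canalicular sterol exporter and overlap on opposite strands at their starts. Abcg5 rose from 75.04, 69.1, 74.6 and 57.1 to 315, 252, 299 and 398 CPM (log2FC 2.19 ± 0.19, adjusted p = 2.13e-07). Abcg8 rose from 110.2 ± 27.6 to 385 ± 98.8 CPM (log2FC 1.80 ± 0.20, adjusted p = 2.63e-06), with no overlap between diets. Mylip, a ubiquitin ligase that lowers sterol uptake, rose by 0.96 ± 0.24 on the log2 scale (adjusted p = 0.00507). Abca1, the pump that loads HDL, was at 246 ± 65.7 CPM in NC and 321 ± 80.2 in Chol_CA and was not called (log2FC 0.38 ± 0.23, adjusted p = 0.259). Lpcat3, an LXR target that remodels phospholipids, fell from 149.8 ± 7.44 to 96.1 ± 16.9 CPM (log2FC −0.64 ± 0.14, adjusted p = 0.00135). The largest fall of the list, Pltp (phospholipid transfer protein, log2 fold change −1.36, adjusted p = 0.0477), was called narrowly. Pltp lost its call without any 1 of NC_3, Chol_CA_0, Chol_CA_2 and Chol_CA_3 (adjusted p 0.0663 to 0.328, log2FC −1.49 to −0.58), with no filter (adjusted p = 0.102, log2FC −1.42), with a stricter filter (adjusted p = 0.0678, log2FC −1.31), in a fit of both diets alone (adjusted p = 0.102, log2FC −1.33), without the negative pair (adjusted p = 0.0501, log2FC −1.93) and without the positive pair (adjusted p = 0.243, log2FC −0.92).

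Genes of sterol ester storage and lysosomal release moved in both directions. Soat1, the cholesterol esterifying enzyme of macrophages and other cells, rose from 1.29, 1.80, 1.297 and 2.41 to 26.0, 32.2, 15.9 and 12.9 CPM (log2FC 3.67 ± 0.43, adjusted p = 3.91e-06). Soat2, the hepatocyte and intestinal isoform, was at 49.4 ± 3.78 CPM in NC, 106 ± 30.6 in CA and 37.9 ± 6.69 in Chol_CA; it was not called against NC (log2FC −0.38 ± 0.18, adjusted p = 0.142) and was lower than in CA (log2FC −1.48 ± 0.18, adjusted p = 2.34e-05). Npc2, which moves cholesterol out of the lysosome, rose by 1.09 ± 0.22 on the log2 scale (adjusted p = 0.00106). Scarb1, the HDL receptor, rose by 0.81 ± 0.16 on the log2 scale (adjusted p = 0.000714). Ces1d, a lipase of the endoplasmic reticulum that can release stored lipid, fell from 593 ± 121 to 119 ± 43.8 CPM (log2FC −2.31 ± 0.26, adjusted p = 3.2e-06). Lipa, lysosomal acid lipase, was not called (325 ± 12.4 CPM in NC, 272 ± 38.2 in Chol_CA; log2FC −0.26 ± 0.17, adjusted p = 0.322). In all, 3 of 11 tested (of 12 in the table) members rose and 3 fell (3 and 2 without the negative pair, 4 falls in the positive-trend fit).

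Part of the genes of bile acid synthesis fell. Of 17 genes 8 fell and 1 rose against NC; without the negative pair 4 fell and 1 rose, and 7 fell in the positive-trend fit. Cyp8b1, the 12-alpha hydroxylase that makes cholic acid (chromosome 9, 121914356 to 121916305), had the largest fall, from 648, 549, 467 and 818 CPM in NC to 9.67, 11.8, 4.40 and 5.52 in Chol_CA (log2FC −6.31 ± 0.32, adjusted p = 2.04e-10). In CA it was lower still, at 0.705, 1.18, 1.58 and 2.12 CPM, and Chol_CA exceeded CA by 2.45 ± 0.33 on the log2 scale (adjusted p = 5.47e-05). Cyp7a1, the rate-limiting enzyme of the classic pathway (chromosome 4, 6265612 to 6275633), stood at 65.0, 42.2, 35.9 and 72.1 CPM in NC, 27.0, 22.5, 11.7 and 30.1 in Chol_CA and 0.118, 0.236, 1.38 and 0.212 in CA, and every Chol_CA library lay above every CA library and below every NC library. Chol_CA was above CA by 5.43 ± 0.56 on the log2 scale (adjusted p = 4.21e-06). Its fall against NC (log2FC −1.24 ± 0.38, adjusted p = 0.0201) lost its call without any 1 of NC_0, NC_3 and Chol_CA_2 (adjusted p 0.0576 to 0.0715, log2FC −1.12 to −0.997), in the positive-trend fit (adjusted p = 0.129, log2FC −1.21), without the negative pair (adjusted p = 0.0799, log2FC −1.35) and without the positive pair (adjusted p = 0.0662, log2FC −1.11).

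Other steps of the pathway followed in part. Cyp27a1, which starts the alternative pathway, fell from 500.0 ± 52.8 to 272 ± 16.5 CPM (log2FC −0.88 ± 0.13, adjusted p = 2.95e-05). Slc27a5, the bile acid ligase, fell by 0.77 ± 0.13 on the log2 scale (adjusted p = 0.000154). Cyp2c70, which makes the mouse-specific muricholic acids, was the member that rose, from 509 ± 69.2 to 1098 ± 180.1 CPM (log2FC 1.11 ± 0.20, adjusted p = 0.000384). Cyp7b1, an oxysterol hydroxylase, was not called against NC (280.4 ± 70.1 and 195 ± 41.4 CPM; log2FC −0.53 ± 0.42, adjusted p = 0.414) but exceeded CA (35.3 ± 23.3 CPM; log2FC 2.46 ± 0.45, adjusted p = 0.000732).

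Among 14 tested (of 15 in the table) carriers of bile acids, phospholipids and conjugates 3 fell and 1 rose (1 and 1 without the negative pair, 2 falls in the positive-trend fit). Slc10a1 (NTCP), which takes bile acids up from blood, fell from 865, 782, 769 and 796 to 219.8, 155, 275 and 448 CPM (log2FC −1.55 ± 0.22, adjusted p = 2.35e-05), with the lowest value in Chol_CA_1. Slc51b, a subunit of the basolateral bile acid exporter, rose from 0.716, 0.415, 0.389 and 0.284 CPM in NC to 5.56, 7.34, 6.15 and 4.55 in Chol_CA (log2FC 3.67 ± 0.43, adjusted p = 6.46e-06) and was higher still in CA (16.9 ± 2.75 CPM; log2FC −1.51 ± 0.30, adjusted p = 0.00176). Its partner Slc51a did not pass the filter, with 1 read over the NC libraries and 0 over Chol_CA. The canalicular bile acid pump Abcb11 was not called (843 ± 218 CPM in NC, 709.7 ± 289.7 in Chol_CA; log2FC −0.25 ± 0.28, adjusted p = 0.582), nor was the phospholipid floppase Abcb4 (log2FC −0.016 ± 0.17, adjusted p = 0.961). Abcc4, a basolateral conjugate pump, was at 4.24 ± 1.44 CPM in NC, 4.77 ± 1.44 in Chol_CA and 38.6 ± 31.7 in CA, so that Chol_CA was below CA (log2FC −3.02 ± 0.51, adjusted p = 0.000433) and not called against NC (log2FC 0.16 ± 0.54, adjusted p = 0.875).

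Of 13 tested (of 15 in the table) receptors that sense bile acids and lipids 3 fell (2 without the negative pair, 5 in the positive-trend fit). Nr1h4, which encodes FXR, fell from 147, 156, 147 and 158 to 93.9, 70.1, 62.1 and 92.4 CPM (log2FC −0.93 ± 0.15, adjusted p = 0.000122), with CA at 86.3 ± 12.5 CPM. Nr0b2 (SHP), the repressor that FXR induces, was not called (80.3 ± 9.32 CPM in NC, 57.6 ± 16.4 in Chol_CA; log2FC −0.48 ± 0.25, adjusted p = 0.192), and neither was Fgfr4, the hepatic receptor of the gut hormone FGF15 (log2FC 0.066 ± 0.12, adjusted p = 0.731). Nr1i2 (PXR), the xenobiotic receptor, was not called against NC (log2FC −0.32 ± 0.13, adjusted p = 0.0861) and was lower than in CA (log2FC −1.16 ± 0.13, adjusted p = 1.24e-05). The largest fall was that of Pparg, the adipogenic receptor, from 16.7 ± 5.53 to 3.58 ± 0.808 CPM (log2FC −2.22 ± 0.48, adjusted p = 0.00168), a call lost in the positive-trend fit (adjusted p = 0.0909, log2FC −1.83).

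**Figure D4:**
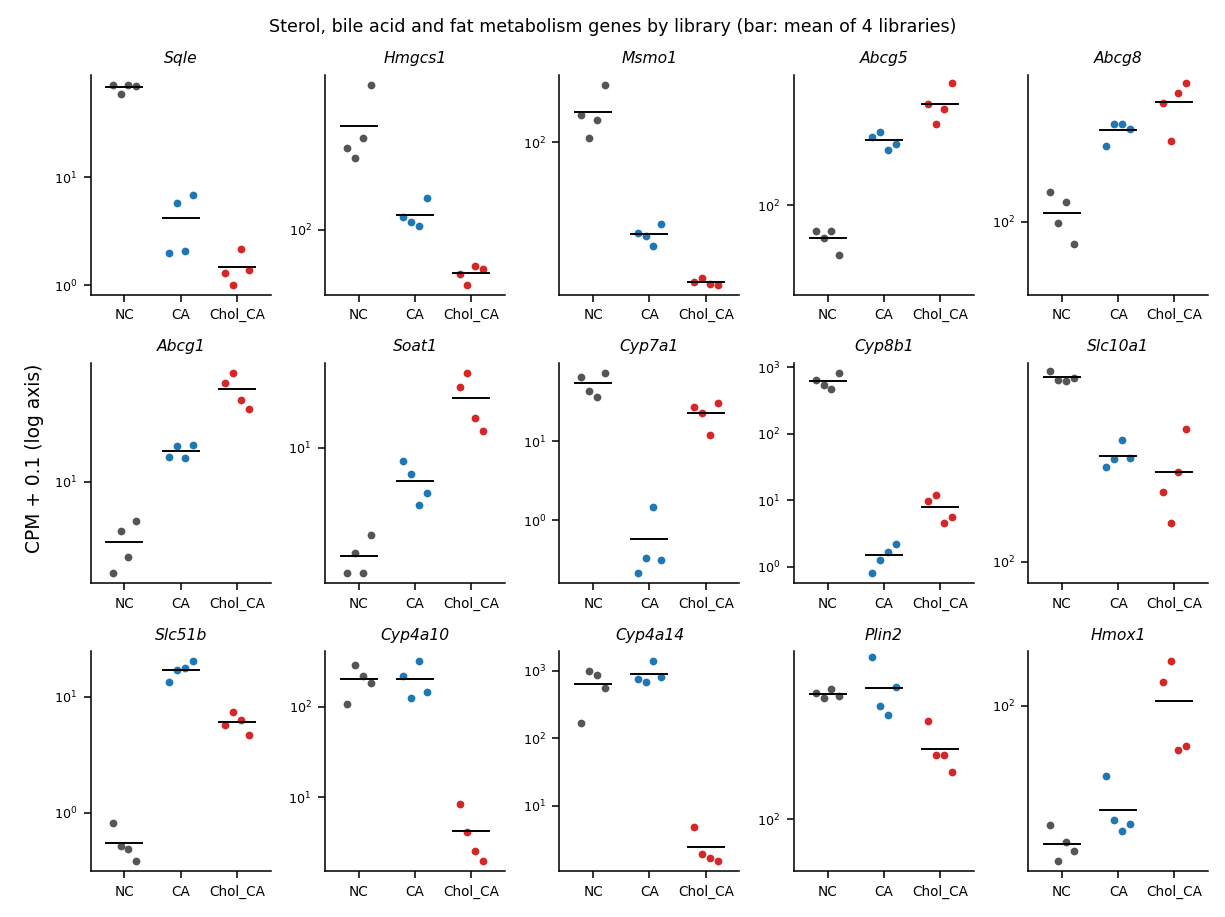
CPM plus 0.1 on a log axis for 15 genes of sterol, bile acid and fat metabolism; each dot is 1 library of NC, CA or Chol_CA, and the black bar is the mean of the 4. Sqle is highest in all 4 NC libraries, Cyp7a1 is lowest in CA, and Cyp4a14 is low in Chol_CA and not in CA.

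Fatty acid oxidation genes fell against both NC and CA. Of 28 genes of oxidation and ketogenesis 26 fell against NC (median log2 fold change −1.15), 25 fell without the negative pair, and 25 were lower than in CA. Many are targets of PPARalpha, the fatty acid receptor of hepatocytes. Cyp4a14, an omega-hydroxylase, held 169, 979, 863 and 548 CPM in NC, 763, 684, 1377 and 809 CPM in CA and 4.77, 1.83, 1.56 and 1.41 CPM in Chol_CA. All 4 Chol_CA libraries were thus below 5 CPM and all 8 others above 100 CPM (log2FC −8.09 ± 0.85, adjusted p = 1.49e-06 against NC). Its near-identical neighbour Cyp4a10, with which it may share reads, fell from 202 ± 76.3 to 4.16 ± 2.94 CPM (log2FC −5.63 ± 0.54, adjusted p = 5.81e-07) while CA stood at 203 ± 87.6 CPM. Ehhadh, an enzyme of peroxisomal oxidation, fell from 463 ± 72.5 to 176 ± 60.5 CPM (log2FC −1.40 ± 0.20, adjusted p = 2.76e-05). Pdk4, the kinase that spares glucose, fell by 2.02 on the log2 scale (adjusted p = 0.000271). Vnn1, a pantetheinase, fell by 2.62 (adjusted p = 3.91e-06). Ppara itself was at 101.2 ± 49.7 CPM in NC and 45.8 ± 31.6 in Chol_CA and was not called (log2FC −1.14 ± 0.58, adjusted p = 0.172).

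Lipogenic genes fell less evenly. Among 18 genes of fatty acid synthesis 13 fell against NC, and without the negative pair 8 fell and 1 rose. Me1, malic enzyme, which supplies NADPH, fell from 150.1, 117, 177 and 206 to 17.6, 13.4, 15.8 and 17.4 CPM (log2FC −3.34 ± 0.23, adjusted p = 1.77e-08) and was also lower than in CA (log2FC −2.26 ± 0.22, adjusted p = 2.74e-06). Acly, which makes cytosolic acetyl-CoA, fell from 415 ± 109 to 142 ± 61.5 CPM (log2FC −1.54 ± 0.30, adjusted p = 0.000556). Elovl6, a fatty acid elongase, fell by 1.32 on the log2 scale (adjusted p = 0.000359). Fasn, fatty acid synthase, was at 1168, 738, 1237 and 1134 CPM in NC and 137, 109, 377 and 888 in Chol_CA (log2FC −1.50 ± 0.44, adjusted p = 0.0166). The lowest NC library lay below the highest Chol_CA library, and the call of Fasn was lost in a fit of both diets alone (adjusted p = 0.123, log2FC −1.48), in the positive-trend fit (adjusted p = 0.236, log2FC −0.74) and without the negative pair (adjusted p = 0.155, log2FC −0.74). Scd1, the stearoyl-CoA desaturase, was at 22451 ± 3997 CPM in NC and 19821 ± 11480.2 in Chol_CA and was not called (log2FC −0.18 ± 0.34, adjusted p = 0.749).

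Of 13 tested (of 15 in the table) lipid droplet proteins 5 fell (4 without the negative pair). Plin2, the droplet coat protein of hepatocytes, fell from 417, 395, 436 and 401 to 304, 207, 206 and 169.7 CPM (log2FC −0.90 ± 0.20, adjusted p = 0.00197), and CA stood at 439.5 ± 134 CPM. G0s2, an inhibitor of the droplet lipase ATGL, fell from 129 ± 44.7 to 34.9 ± 18.6 CPM (log2FC −1.89 ± 0.37, adjusted p = 0.000764). Fitm1, a droplet-forming protein of the endoplasmic reticulum, had the largest fall (log2FC −2.62 ± 0.46, adjusted p = 0.000262). Hsd17b13, another hepatocyte droplet protein, was not called (log2FC 0.11 ± 0.14, adjusted p = 0.629). Among 15 apolipoproteins and assembly factors 4 fell and 1 rose, and without the negative pair 1 fell, against 5 in the positive-trend fit. Apoa1 (log2FC −0.093 ± 0.27, adjusted p = 0.846) and Apob (log2FC −0.45 ± 0.41, adjusted p = 0.478), the main proteins of HDL and LDL, were not called. Mttp, which loads lipid onto ApoB, fell from 465 ± 75.8 to 244 ± 60.2 CPM (log2FC −0.93 ± 0.21, adjusted p = 0.002), a call lost without the negative pair (adjusted p = 0.0549, log2FC −0.68). The 1 rise was Apoc2, the activator of lipoprotein lipase (log2FC 0.89 ± 0.26, adjusted p = 0.0146). Apoc2 lost its call without any 1 of NC_1 and Chol_CA_1 (adjusted p 0.0538 to 0.0827, log2FC 0.63 to 0.79), in a fit of both diets alone (adjusted p = 0.0502, log2FC 0.92) and without the negative pair (adjusted p = 0.325, log2FC 0.45).

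Drug-metabolizing genes were low against both NC and CA. Of 31 tested (of 35 in the table) cytochrome P450 genes of the drug-metabolizing families 15 were lower than in NC (11 without the negative pair), and 19 lower and 2 higher than in CA. Cyp2b10 and Cyp3a11 are induced through the receptors CAR and PXR. Cyp3a11 was at 3312, 3729, 3069 and 4349.6 CPM in NC, 2820.0, 1622, 2827 and 1806 in Chol_CA and 12062, 13596, 19771 and 15594 in CA. Chol_CA was below CA (log2FC −2.75 ± 0.29, adjusted p = 6.81e-06) and not called against NC (log2FC −0.67 ± 0.28, adjusted p = 0.0848). Cyp2b9, also on the list of female-biased genes below, had 0.522 ± 0.413 CPM in NC, 0.235 ± 0.123 in Chol_CA and 167 ± 118 in CA (log2FC −9.44 ± 0.74, adjusted p = 1.53e-07 against CA). Cyp2b10, with 71 reads over the NC libraries and 3 over the Chol_CA libraries, was called lower than NC (adjusted p = 0.0116). The ratio of its pooled read rates, Chol_CA over NC, was 0.0342 (95% exact interval 0.00689 to 0.104), an interval that, like each such interval below, covers counting error only and not the spread between libraries. Without Chol_CA_2 the ratio was 0.0160. That call was lost in the positive-trend fit (adjusted p = 0.249, log2FC −4.14), without the negative pair (adjusted p = 0.115, log2FC −4.36) and without the positive pair (adjusted p = 0.0575, log2FC −4.98). Cyp2c29 fell from 2051, 1991, 1969.9 and 1972 to 492, 401, 444 and 674 CPM (log2FC −1.99 ± 0.25, adjusted p = 9.11e-06), against 5960.2 ± 2672 CPM in CA. Cyp2e1, the ethanol-metabolizing enzyme of pericentral hepatocytes, fell from 8226 ± 170.4 to 3289.8 ± 608 CPM (log2FC −1.32 ± 0.15, adjusted p = 3.16e-06), with CA at 3511 ± 675 CPM (log2FC −0.094 ± 0.15, adjusted p = 0.723 for Chol_CA over CA).

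Conjugating enzymes and esterases mostly fell where they changed. Of 21 tested (of 24 in the table) UDP-glucuronosyl- and sulfotransferases 13 fell and 1 rose (9 fell without the negative pair, 14 in the positive-trend fit). Ugt1a5 fell most, from 47.5 ± 3.59 to 3.33 ± 2.28 CPM (log2FC −3.80 ± 0.49, adjusted p = 1.04e-05), although the Ugt1a genes share exons and may share reads. The rise was that of Ugt2b37 (log2FC 2.01 ± 0.58, adjusted p = 0.0148), which lost its call without NC_2 (adjusted p = 0.0544, log2FC 1.82) and without the negative pair (adjusted p = 0.0603, log2FC 1.96). Sult2a8, a bile acid sulfotransferase, fell from 839.7 ± 20.3 to 260.0 ± 102 CPM (log2FC −1.69 ± 0.38, adjusted p = 0.00226), a call lost without the negative pair (adjusted p = 0.0662, log2FC −1.40). Ugt2b1 was at 635 ± 81.5 CPM in NC and 486 ± 99.4 in Chol_CA (log2FC −0.38 ± 0.17, adjusted p = 0.123) and was called without Chol_CA_3 (adjusted p = 0.0156). Among 13 carboxylesterases 7 fell (7 without the negative pair). Ces1f (690.5 ± 69.3 to 120.3 ± 51.2 CPM; log2FC −2.52 ± 0.22, adjusted p = 2.77e-07) and Ces2a (268 ± 17.6 to 119 ± 6.22 CPM; log2FC −1.17 ± 0.22, adjusted p = 0.00051) were among the falls, and CA held Ces2a at 1337 ± 562 CPM.

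Glutathione and NRF2 genes moved in both directions. Against NC 7 of 24 rose and 5 fell (2 and 5 without the negative pair, 4 and 7 in the positive-trend fit). Hmox1, heme oxygenase, which is also induced in macrophages, rose from 24.9, 16.2, 20.4 and 18.2 to 132, 167, 59.3 and 62.1 CPM (log2FC 2.40 ± 0.35, adjusted p = 3.22e-05), above CA (29.6 ± 9.58 CPM; log2FC 1.83 ± 0.34, adjusted p = 0.000776). Gstm3, a glutathione transferase, rose from 73.8 ± 21.1 to 664 ± 501 CPM (log2FC 3.17 ± 0.54, adjusted p = 0.000187) and was lower than in CA, at 4345 ± 2425 CPM (log2FC −2.71 ± 0.53, adjusted p = 0.00124). Gclc, the rate-limiting enzyme of glutathione synthesis, fell from 763 ± 106 to 458 ± 115 CPM (log2FC −0.74 ± 0.17, adjusted p = 0.00268). Gstt3 had the largest fall (log2FC −2.26 ± 0.44, adjusted p = 0.000593). The largest rise was in Slc7a11, the cystine importer, with 2 reads over the NC libraries and 6.62, 7.45, 2.25 and 1.41 CPM in Chol_CA. The ratio of its pooled read rates was 61.2 (95% exact interval 16.6 to 509.6), and the call (adjusted p = 0.00239) was lost in the positive-trend fit (adjusted p = 0.162, log2FC 4.11) and without the negative pair (adjusted p = 0.0508, log2FC 4.46).

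Genes that differ between male and female liver differed from CA in opposite directions. Summed over the male-biased list, CPM was 6882 in CA_0, 889 to 1822 in CA_1 to CA_3 and 8026 to 12925 in Chol_CA. For the female-biased list these sums were 144, 523 to 1078 and 43.0 to 77.2. The sex of the mice is not given, and its part in these differences was not tested. Of 22 male-biased genes 15 were higher than in CA and 7 lower than in NC (7 without the negative pair). Of 13 tested (of 18 in the table) female-biased genes 10 were lower than in CA, and 4 were lower and 1 higher than in NC (4 and 1 without the negative pair). Members that passed the low-count filter through CA, where they were high, had to be lower than in CA, so that count is a description. Hsd3b5, a male-biased steroid dehydrogenase, was at 81.7, 56.5, 58.3 and 162 CPM in Chol_CA and 16.0, 0.707, 5.72 and 0.425 in CA (log2FC 3.98 ± 0.64, adjusted p = 0.000283). It was at 195 ± 18.6 CPM in NC, and the difference from NC was not called in the fit of all libraries. That difference was called without Chol_CA_3 (adjusted p = 0.0494), the Chol_CA library of the highest level. Cux2, a female-specific repressor, was at 0.530, 0.688, 0.195 and 0.649 CPM in Chol_CA and 0.470, 8.83, 43.6 and 22.3 in CA (log2FC −5.18 ± 0.80, adjusted p = 0.000206). Susd4 was the male-biased gene with the largest fall against NC, from 42.2 ± 17.3 to 3.53 ± 2.66 CPM (log2FC −3.55 ± 0.41, adjusted p = 3.91e-06), while CA held 0.319 ± 0.183 CPM. Cyp4a12a, a male-specific hydroxylase, fell from 292 ± 32.2 to 75.5 ± 18.9 CPM (log2FC −1.95 ± 0.39, adjusted p = 0.000785). Prlr, the prolactin receptor, fell from 81.6, 158, 163 and 99.6 to 32.7, 15.6, 9.18 and 26.5 CPM (log2FC −2.59 ± 0.39, adjusted p = 4.71e-05) with CA at 123 ± 57.3 CPM. The female-biased Cyp2c69 had the largest fall, with 41 reads over NC and 3 over Chol_CA, a ratio of 0.0593 (95% exact interval 0.0117 to 0.186) (adjusted p = 0.000642). Atp6v0d2, a proton pump subunit also on the lysosomal list, rose (log2FC 2.99, adjusted p = 0.00144).

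Of 15 growth hormone signalling genes 4 fell (3 without the negative pair). Igf1, the circulating growth factor, fell from 669, 809, 741 and 815 to 529, 468, 432 and 548 CPM (log2FC −0.62 ± 0.13, adjusted p = 0.00114). Igfals, its carrier subunit, fell from 96.4 ± 15.3 to 39.7 ± 8.44 CPM (log2FC −1.28 ± 0.19, adjusted p = 4e-05). Stat5b, the transducer of the signal, was not called (log2FC −0.23 ± 0.20, adjusted p = 0.458). Igfbp1, an insulin-responsive binding protein, had the largest fall (log2FC −1.87, adjusted p = 0.00903), a call lost in the positive-trend fit (adjusted p = 0.0774, log2FC −2.09) and without the positive pair (adjusted p = 0.0795, log2FC −1.46).

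Zonation genes fell at both ends of the lobule. Of 19 pericentral genes 13 fell and 1 rose against NC, and of 18 periportal and urea cycle genes 9 fell and 2 rose. Without Chol_CA_0 and Chol_CA_1 the falls numbered 7 and 3, and in the positive-trend fit 12 and 7. Oat, the pericentral ornithine aminotransferase, fell from 428 ± 95.2 to 216 ± 66.9 CPM (log2FC −0.99 ± 0.19, adjusted p = 0.000674). Slc22a3, an organic cation carrier, had the largest pericentral fall (log2FC −1.79, adjusted p = 0.00113); the rise was Gstm3. Gls2, periportal glutaminase, fell from 376, 307, 344 and 318 to 159, 145, 191 and 212 CPM (log2FC −0.93 ± 0.14, adjusted p = 4.62e-05). Cps1, the first enzyme of the urea cycle, was not called (log2FC −0.21 ± 0.23, adjusted p = 0.563), nor was Cyp2f2, a marker of periportal hepatocytes (log2FC −0.18 ± 0.18, adjusted p = 0.531). Ctsc, a protease that leukocytes also express, was the largest periportal rise (log2FC 1.40, adjusted p = 0.000132) and Etnppl, which breaks down phosphoethanolamine, the largest fall (log2FC −1.37, adjusted p = 0.00355), a call lost without the negative pair (adjusted p = 0.0647, log2FC −1.03).

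Of 15 hepatocyte transcription factors 4 fell (3 without the negative pair, 6 in the positive-trend fit). Cebpa, a factor of differentiated hepatocytes, fell from 382, 365, 328 and 298 to 218, 189, 211 and 223 CPM (log2FC −0.71 ± 0.12, adjusted p = 0.000117). The factors Foxa2 (log2FC −0.22 ± 0.31, adjusted p = 0.666) and Prox1 (log2FC −0.46 ± 0.40, adjusted p = 0.454) were not called. Onecut2 had the largest fall (log2FC −0.87, adjusted p = 0.00541), which was lost in a fit of both diets alone (adjusted p = 0.0634, log2FC −0.85) and without the negative pair (adjusted p = 0.138, log2FC −0.54). Alb, the albumin gene, with the highest mean CPM of the genes tested, fell from 91537, 92067, 94529.8 and 85754 CPM in NC to 42464, 28798, 44143 and 47214 in Chol_CA (log2FC −1.16 ± 0.16, adjusted p = 1.96e-05), and CA stood at 73012 ± 13367 CPM (log2FC −0.84 ± 0.16, adjusted p = 0.000897 for Chol_CA over CA). It was 1 of 2 falls among 6 hepatocyte secretory markers, and Ambp, which encodes a secreted protease inhibitor, was not called (log2FC 0.18 ± 0.14, adjusted p = 0.385). In whole liver, fewer cells of a type and less RNA per cell cannot be told apart.

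Glucose genes moved in both directions. Of 25 genes 7 rose and 7 fell (6 and 4 without the negative pair, 5 and 8 in the positive-trend fit). Hk2 and Hk3, hexokinases that hepatocytes express little, rose from 0.588 ± 0.335 to 10.3 ± 4.90 CPM (log2FC 4.09 ± 0.49, adjusted p = 4.68e-06) and from 1.29 ± 0.774 to 23.9 ± 16.3 CPM (log2FC 4.20 ± 0.58, adjusted p = 2e-05). Pkm, the pyruvate kinase of non-hepatocytes, was at 3.44, 3.05, 3.11 and 8.10 CPM in NC and 37.2, 82.8, 21.6 and 16.9 in Chol_CA (log2FC 3.16 ± 0.47, adjusted p = 4.42e-05), highest in Chol_CA_0 and Chol_CA_1. Slc2a6, a glucose carrier of activated macrophages, had no reads in NC and 9.14, 17.1, 2.25 and 1.08 CPM in Chol_CA. Against a floor of 3 reads over the NC libraries Chol_CA was at least 67.8-fold higher, or at least 36.4-fold without Chol_CA_1. Fbp1, an enzyme of glucose production, fell from 872 ± 34.3 to 467 ± 84.0 CPM (log2FC −0.90 ± 0.15, adjusted p = 0.000104). Pklr, the hepatocyte pyruvate kinase, had the largest called fall (log2FC −1.02, adjusted p = 0.0027), lost in a fit of both diets alone (adjusted p = 0.0522, log2FC −0.99).

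Methionine, choline and one-carbon genes fell, 11 of 18 against NC (11 without the negative pair). Mat1a, which makes S-adenosylmethionine in hepatocytes, fell from 2181, 2313, 2127 and 1738 to 896, 662, 1089.7 and 957 CPM (log2FC −1.21 ± 0.18, adjusted p = 5.01e-05), with CA at 1742 ± 409 CPM. Gnmt, which consumes it, fell from 1349 ± 383 to 602 ± 66.2 CPM (log2FC −1.16 ± 0.17, adjusted p = 3.54e-05). Pemt, which makes phosphatidylcholine, fell by 0.66 on the log2 scale (adjusted p = 0.0061). Dmgdh, of choline breakdown, had the largest fall (log2FC −1.27, adjusted p = 0.000184). Cbs was not called (log2FC −0.26 ± 0.14, adjusted p = 0.219). Of 74 tested (of 76 in the table) nuclear-encoded respiratory chain genes 18 fell, 17 without the negative pair and 46 in the positive-trend fit. The largest fall was that of Sdha, a subunit of complex II (579 ± 57.8 to 348 ± 75.8 CPM; log2FC −0.74 ± 0.16, adjusted p = 0.0017), and the ATP synthase subunit Atp5b fell by 0.61 on the log2 scale (adjusted p = 0.0009), while Cox4i1 was not called (log2FC −0.20 ± 0.23, adjusted p = 0.584).

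Stress and timing genes showed few rises. By edgeR none of 20 endoplasmic reticulum chaperones was called against NC, with or without the negative pair, while 3 were lower at an unadjusted p under 0.05 and DESeq2 called 1 lower. Against CA 7 were higher (4 without the negative pair, 13 in the positive-trend fit). Hspa5 (BiP) was at 736, 779, 622 and 756 CPM in NC, 572, 639, 718 and 801 in Chol_CA and 549, 399, 374 and 399 in CA (log2FC −0.084 ± 0.20, adjusted p = 0.803 against NC). Xbp1, a factor of the unfolded protein response, was not called either (log2FC 0.081 ± 0.17, adjusted p = 0.777). Of 18 tested (of 19 in the table) genes of the integrated stress response 7 fell and 1 rose (7 fell without the negative pair). Asns, asparagine synthetase, fell from 10.7 ± 8.003 to 1.16 ± 0.519 CPM (log2FC −3.19 ± 0.73, adjusted p = 0.00266), a call lost in the positive-trend fit (adjusted p = 0.134, log2FC −3.38), and Vldlr, the VLDL receptor, from 3.64 ± 1.27 to 0.501 ± 0.391 CPM (log2FC −2.82 ± 0.67, adjusted p = 0.0036). The rise was Nupr1, a stress-induced nuclear protein (log2FC 1.91, adjusted p = 0.000794), lost without the negative pair (adjusted p = 0.0663, log2FC 0.89). Of 15 tested (of 17 in the table) immediate early genes 3 rose and 5 fell (2 and 6 without the negative pair). Egr1 fell from 75.2, 99.0, 72.5 and 207 to 29.7, 23.7, 26.9 and 10.6 CPM (log2FC −2.32 ± 0.46, adjusted p = 0.000702). Jun fell by 1.35 on the log2 scale (adjusted p = 0.000171), while Klf6 rose from 9.82 ± 2.24 to 31.4 ± 10.5 CPM (log2FC 1.68 ± 0.25, adjusted p = 4.62e-05). Egr2, which myeloid cells induce, had 1 read over NC and 4.90, 3.32, 3.13 and 2.27 CPM in Chol_CA, a ratio of 96.4 (95% exact interval 17.0 to 3839) (adjusted p = 4.86e-05).

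Of 19 clock genes 4 fell (1 without the negative pair, 7 without the positive pair and 9 in the positive-trend fit). Arntl (BMAL1), the core activator, was not called (log2FC −0.27 ± 0.42, adjusted p = 0.7). Nr1d1 (REV-ERBalpha), a repressor of the clock, fell from 260.1, 210.5, 214 and 86.8 to 99.4, 73.4, 91.6 and 87.9 CPM (log2FC −1.13 ± 0.27, adjusted p = 0.0033), with an overlap between diets. Bhlhe40, another repressor, had the largest called fall (log2FC −1.26, adjusted p = 0.00985), lost in a fit of both diets alone (adjusted p = 0.0571, log2FC −1.24) and without the negative pair (adjusted p = 0.102, log2FC −1.17). Of 13 tested (of 15 in the table) retinoid genes 4 fell and 1 rose (4 fell without the negative pair). Rdh16, a retinol dehydrogenase, fell from 85.8 ± 29.5 to 10.2 ± 1.92 CPM (log2FC −3.07 ± 0.26, adjusted p = 1.93e-07). Cyp26a1, which breaks down retinoic acid and is induced by it, fell from 10.5 ± 5.83 to 1.32 ± 0.354 CPM (log2FC −2.97 ± 0.65, adjusted p = 0.00176). Aldh1a1, which makes retinoic acid, fell from 1383 ± 234 to 478 ± 102 CPM (log2FC −1.53 ± 0.23, adjusted p = 5.67e-05). Among 18 iron genes 1 rose and 1 fell, and without the negative pair edgeR called none, with 2 higher and 3 lower at an unadjusted p under 0.05 and no other tool run on those libraries. In the positive-trend fit 3 fell. Hamp, the iron hormone hepcidin, was not called (526 ± 274 and 663 ± 296 CPM; log2FC 0.33 ± 0.42, adjusted p = 0.619). Slc40a1, the iron exporter (log2FC 0.93, adjusted p = 0.0058), and Tfr2, a sensor of transferrin (log2FC −0.43, adjusted p = 0.00324), were the called members. Slc40a1 was lost in the positive-trend fit (adjusted p = 0.0752, log2FC 0.70) and without the negative pair (adjusted p = 0.0523, log2FC 0.86) and Tfr2 in a fit of both diets alone (adjusted p = 0.0518, log2FC −0.40) and without the negative pair (adjusted p = 0.0952, log2FC −0.31).

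Acute phase genes rose. Of 25 acute phase and metallothionein genes 15 were higher in Chol_CA than in NC, 10 without the negative pair, and 13 were higher than in CA (6 without the negative pair, 10 in the positive-trend fit). Lcn2, lipocalin 2, which withholds iron from bacteria (chromosome 2, 32384633 to 32388252), was at 3.72, 3.74, 1.43 and 3.41 CPM in NC and 498, 918, 113 and 39.2 in Chol_CA (log2FC 6.99 ± 0.90, adjusted p = 1.07e-05). Saa1 and Saa2, serum amyloid A genes with near-identical sequence, rose by 5.05 ± 0.87 on the log2 scale (adjusted p = 0.000191) and by 5.82 ± 0.97 (adjusted p = 0.000145). Saa3, the form that macrophages also make, went from 1.86, 2.08, 2.59 and 1.14 to 129, 403, 33.3 and 28.4 CPM (log2FC 6.26 ± 0.84, adjusted p = 1.62e-05). In each of Lcn2 and Saa3 the values of Chol_CA_0 and Chol_CA_1 were above those of Chol_CA_2 and Chol_CA_3, and all 4 were above NC. Orm2, an orosomucoid, rose from 9.98 ± 3.59 to 238 ± 214 CPM (log2FC 4.58 ± 0.63, adjusted p = 2.07e-05). Hpx, which scavenges heme, rose from 2682 ± 234 to 7605 ± 2839.8 CPM (log2FC 1.504 ± 0.27, adjusted p = 0.000316). Fgb, fibrinogen beta, another acute phase protein, was not called (5862 ± 643 and 5944 ± 831 CPM; log2FC 0.02 ± 0.15, adjusted p = 0.944).

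Of 32 complement and coagulation genes of hepatocytes 2 rose and 4 fell against NC, beside 15.0% and 9.35% of all genes tested. Without the negative pair 1 rose and 5 fell, and 8 fell in the positive-trend fit. C3 was at 8304 ± 2923 CPM in NC and 8534 ± 1300.1 in Chol_CA (log2FC 0.039 ± 0.29, adjusted p = 0.941) and C4b was not called either (log2FC 0.12 ± 0.20, adjusted p = 0.714). F2, prothrombin, fell from 1868 ± 45.5 to 1362 ± 76.9 CPM (log2FC −0.46 ± 0.10, adjusted p = 0.0024). Kng1, kininogen, fell by 0.63 on the log2 scale (adjusted p = 0.000401). C2 had the largest called rise (log2FC 0.64, adjusted p = 0.042). C2 lost its call without any 1 of NC_0, NC_1, NC_2, Chol_CA_0 and Chol_CA_1 (adjusted p 0.0709 to 0.234, log2FC 0.37 to 0.67), with no filter (adjusted p = 0.0725, log2FC 0.58), in a fit of both diets alone (adjusted p = 0.0977, log2FC 0.67), in the positive-trend fit (adjusted p = 0.22, log2FC 0.24) and without the negative pair (adjusted p = 0.607, log2FC 0.22).

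Kupffer cell markers rose. Of 14 markers 12 rose against NC, 11 rose without the negative pair, and 7 were higher than in CA. Members that passed the low-count filter through Chol_CA, where they were high, had to be higher there, so these counts are a description. Without the negative pair edgeR called 0 higher than in CA, 1 called lower, with 6 higher at an unadjusted p under 0.05 and no other tool run, while in the positive-trend fit 8 were higher. The summed level of the list was 608 to 1062 CPM in CA, between the NC and Chol_CA sums given above. Clec4f, a lectin specific to Kupffer cells, was at 20.9, 25.8, 24.8 and 38.8 CPM in NC and 122, 209, 109 and 99.9 in Chol_CA (log2FC 2.29 ± 0.33, adjusted p = 3.38e-05), and CA at 86.4 ± 37.5 CPM was not called apart from Chol_CA (log2FC 0.65 ± 0.31, adjusted p = 0.163) except without CA_0 (adjusted p = 0.0323). Timd4, a receptor for dying cells on resident Kupffer cells, rose from 2.63 ± 0.473 to 16.1 ± 7.68 CPM (log2FC 2.61 ± 0.43, adjusted p = 0.000123), again with CA (11.8 ± 4.57 CPM) not called apart from Chol_CA (log2FC 0.44 ± 0.37, adjusted p = 0.46). Marco, a scavenger receptor, rose most, from 2.15, 0.831, 1.945 and 3.41 to 202, 373, 79.7 and 61.5 CPM (log2FC 6.42 ± 0.87, adjusted p = 1.7e-05). Cd5l, a secreted macrophage protein, rose from 23.6 ± 2.57 to 463 ± 184 CPM (log2FC 4.30 ± 0.44, adjusted p = 1.3e-06). Adgre1 (F4/80), the pan-macrophage antigen, rose from 3.36 ± 1.53 to 47.9 ± 4.64 CPM (log2FC 3.83 ± 0.45, adjusted p = 4.67e-06). Csf1r, the receptor of the macrophage growth factor, rose by 3.32 ± 0.38 on the log2 scale (adjusted p = 3.6e-06).

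Markers of lipid-associated macrophages, which gather around lipid-laden cells, rose as well. Of 17 markers 12 rose and 1 fell against NC (11 and 1 without the negative pair), and 12 were higher and 2 lower than in CA (8 higher without the negative pair). These counts too are a description, because members that passed the low-count filter through Chol_CA had to be higher there. Gpnmb, with 6 reads over NC and 46 over CA, is such a member, so its differences are a description as well. Gpnmb, a membrane glycoprotein of these cells (chromosome 6, 49036546 to 49070929), was at 0.143, 0.138, 0 and 0.568 CPM in NC, 0.940, 0.589, 2.07 and 1.27 in CA and 176, 165, 108 and 59.7 in Chol_CA. Chol_CA exceeded CA by 6.66 ± 0.46 on the log2 scale (adjusted p = 4.8e-08), and the lowest Chol_CA library was above 50 CPM while no CA library reached 3 CPM. Trem2, the lipid receptor, was at 14.6, 21.3, 7.33 and 4.98 CPM in Chol_CA against 0.864 ± 0.398 in CA (log2FC 3.76 ± 0.53, adjusted p = 8.74e-05). Itgax (CD11c), an integrin of dendritic cells and macrophages, rose from 0.573, 1.11, 0.778 and 0.994 to 36.7, 51.9, 16.9 and 12.3 CPM (log2FC 5.06 ± 0.54, adjusted p = 1.74e-06). Lgals3, galectin 3, rose from 1.60 ± 0.922 to 89.0 ± 73.8 CPM (log2FC 5.79 ± 0.64, adjusted p = 2.15e-06). Lpl, lipoprotein lipase, rose from 26.2, 42.1, 30.9 and 38.1 to 463, 436, 306 and 225 CPM (log2FC 3.38 ± 0.24, adjusted p = 1.77e-08). Fabp5, a fatty acid binding protein, was not called (log2FC −0.91 ± 0.47, adjusted p = 0.182). The member that fell was Plin2, which hepatocytes also express.

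Lysosomal genes rose in part, and the promoters of several carry the letters TCACGTGA, the E box through which TFEB and its relatives act on lysosomal genes. In the RefSeq windows it occurred, on either strand, in 5 of the 30 members that have a window, against 1.12% of all symbols: Ctsa, Ctsd, Gla, Mcoln1 and Atp6v1a. Of these 5, Ctsd and Gla rose and the other 3 were not called, and 15 members with a window but without the letters rose. The 250 bases before the start site are shown for a pair that rose and for 1 that was not called, with the letters in capitals: Ctsd at chr7:142387828-142388077 (minus strand), Gla at chrX:134601006-134601255 (minus strand) and Mcoln1 at chr8:3500269-3500518 (plus strand), all GRCm38.p6.
Ctsd: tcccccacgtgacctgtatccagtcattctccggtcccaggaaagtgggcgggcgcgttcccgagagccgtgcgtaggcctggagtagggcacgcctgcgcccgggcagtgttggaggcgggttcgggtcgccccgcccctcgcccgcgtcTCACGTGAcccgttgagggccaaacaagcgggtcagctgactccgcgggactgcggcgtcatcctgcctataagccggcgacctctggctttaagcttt
Gla: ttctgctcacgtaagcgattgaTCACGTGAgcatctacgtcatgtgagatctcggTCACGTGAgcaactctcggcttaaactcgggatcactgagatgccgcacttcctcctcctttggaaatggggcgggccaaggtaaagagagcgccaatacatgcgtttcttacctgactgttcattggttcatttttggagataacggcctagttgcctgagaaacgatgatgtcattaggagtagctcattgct
Mcoln1: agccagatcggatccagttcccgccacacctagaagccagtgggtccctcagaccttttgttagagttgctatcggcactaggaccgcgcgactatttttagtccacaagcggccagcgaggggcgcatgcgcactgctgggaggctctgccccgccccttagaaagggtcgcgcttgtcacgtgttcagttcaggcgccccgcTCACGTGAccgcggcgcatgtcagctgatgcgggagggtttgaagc

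Ctsd, the aspartic protease cathepsin D, was at 413, 357, 365 and 336 CPM in NC and 841, 1098, 592 and 523 in Chol_CA (log2FC 1.05 ± 0.20, adjusted p = 0.000581). Gla, alpha-galactosidase, rose from 5.06 ± 0.852 to 9.78 ± 3.23 CPM (log2FC 0.94 ± 0.23, adjusted p = 0.00394), a call lost in the positive-trend fit (adjusted p = 0.184, log2FC 0.48) and without the negative pair (adjusted p = 0.156, log2FC 0.52). Mcoln1, the lysosomal calcium channel, was at 37.7 ± 1.52 and 32.7 ± 4.07 CPM (log2FC −0.20 ± 0.11, adjusted p = 0.201), called lower without Chol_CA_3 (adjusted p = 0.0455). Over the list 22 of 38 genes rose and 2 fell against NC, 15 rose without the negative pair, and 21 were higher and 1 lower than in CA. Without the negative pair 6 were higher than in CA, and in the positive-trend fit 13. Ctss, a protease of antigen-presenting cells, had the largest rise, from 9.45, 12.2, 10.6 and 23.9 to 491, 643, 188 and 157 CPM (log2FC 4.72 ± 0.52, adjusted p = 2.09e-06). Cd68, a macrophage lysosomal glycoprotein, rose from 4.6003 ± 1.81 to 94.3 ± 56.9 CPM (log2FC 4.36 ± 0.47, adjusted p = 1.98e-06). Lgmn, legumain, was raised in all 4 Chol_CA libraries, at 243, 279, 193 and 154 CPM against 43.7, 42.2, 44.6 and 42.2 in NC (log2FC 2.33 ± 0.23, adjusted p = 6.64e-07). Lamp1, the main lysosomal membrane protein, was not called (594 ± 103 and 655 ± 60.2 CPM; log2FC 0.14 ± 0.14, adjusted p = 0.52). Lamp2 fell (log2FC −0.46, adjusted p = 0.0229) but lost its call without any 1 of NC_0, NC_1, NC_2 and Chol_CA_1 (adjusted p 0.0516 to 0.0862, log2FC −0.45 to −0.32), in a fit of both diets alone (adjusted p = 0.121, log2FC −0.44) and without the negative pair (adjusted p = 0.236, log2FC −0.30).

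Genes of monocytes and neutrophils rose where they passed the filter. Of 20 monocyte and neutrophil genes in the table, 12 passed the low-count filter, and all 12 rose; without the negative pair 11 passed and 9 rose. Genes that pass through the diet in which they are high had to differ, so these counts are a description. The same holds below for the lectin, chemokine, adhesion, Toll-like receptor, cytokine and inflammasome, and MHC class II lists. The T and NK cell, B cell, matrix-degrading and cell cycle counts are a description too, as are those of other lists with such members. Ly6c2, of inflammatory monocytes, was at 0.143, 0.692, 0 and 0.284 CPM in NC and 11.4, 39.5, 2.83 and 2.06 in Chol_CA (log2FC 5.57 ± 1.02, adjusted p = 0.000364), and Ccr2, their chemokine receptor, at 0.573, 1.25, 0.908 and 2.56 and 26.1, 29.0, 10.9 and 3.57 CPM (log2FC 3.70 ± 0.59, adjusted p = 9.72e-05). Lyz2, lysozyme of macrophages, went from 14.0 ± 2.37 to 638 ± 527 CPM (log2FC 5.51 ± 0.60, adjusted p = 1.94e-06), with CA at 60.6 ± 27.9 CPM. Lyz1, its Paneth cell paralog with which it may share reads, had 1 read over NC and 18.9, 44.6, 1.66 and 3.90 CPM in Chol_CA, a ratio of 474 (95% exact interval 84.7 to 18748) (adjusted p = 3.13e-05). Without Chol_CA_1 that ratio was 210.0. S100a8, an alarmin of neutrophils, was at 3.71, 17.3, 4.40 and 1.41 CPM in Chol_CA (log2FC 5.15 ± 0.84, adjusted p = 0.000123). Of 13 tested (of 14 in the table) C-type lectins of myeloid cells 12 rose (8 of 10 without the negative pair). Clec7a, the receptor for beta-glucan, went from 1.29, 1.52, 1.43 and 2.84 to 96.6, 107, 49.6 and 35.4 CPM (log2FC 5.34 ± 0.45, adjusted p = 1.93e-07). Clec4e, a receptor for dead cells and mycobacterial lipid, went from 1 read over NC to 36.4, 61.2, 4.69 and 3.03 CPM, a ratio of 717 (95% exact interval 128 to 28346) (adjusted p = 2.06e-05). Without Chol_CA_1 it was 376.

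Chemokines, adhesion molecules and pattern receptors rose with them. Of 25 tested (of 33 in the table) chemokines and receptors 22 rose and 1 fell (16 rises without the negative pair), and 15 were higher than in CA (6 without the negative pair, 8 in the positive-trend fit). Ccl2, which recruits monocytes through Ccr2, was at 0.143, 0.554, 0.259 and 0.284 CPM in NC and 12.7, 12.03, 6.06 and 3.14 in Chol_CA (log2FC 4.69 ± 0.73, adjusted p = 7.35e-05). Ccl5, made by T cells and macrophages, rose most, to 49.8, 142, 6.06 and 9.09 CPM from 0.692 ± 0.278 (log2FC 6.19 ± 1.14, adjusted p = 0.000373). Cxcl9, induced by interferon gamma, was at 4.73, 11.1, 7.13 and 12.1 and 268, 346, 64.9 and 41.9 CPM (log2FC 4.36 ± 0.78, adjusted p = 0.000306). Cxcl16, a scavenger receptor and chemokine, rose from 8.39 ± 2.54 to 53.0 ± 29.8 CPM (log2FC 2.66 ± 0.32, adjusted p = 4.68e-06). Cxcl12, of stromal and endothelial cells, was the fall (log2FC −0.64, adjusted p = 0.00585), lost in a fit of both diets alone (adjusted p = 0.0631, log2FC −0.62) and without the negative pair (adjusted p = 0.17, log2FC −0.35). Among 14 tested (of 16 in the table) adhesion molecules 11 rose (12 without the negative pair), among them the leukocyte integrin chain Itgb2 (2.92 ± 1.05 to 79.3 ± 43.7 CPM; log2FC 4.76 ± 0.52, adjusted p = 2.01e-06) and its ligand Icam1 (12.3 ± 3.24 to 61.8 ± 24.7 CPM; log2FC 2.32 ± 0.27, adjusted p = 3.5e-06). Selp, P-selectin, was not called (log2FC −0.26 ± 0.41, adjusted p = 0.705). Of 13 tested (of 14 in the table) Toll-like receptors and partners 9 rose and 1 fell, also without the negative pair. Cd14, the endotoxin co-receptor, rose from 1.002, 0.969, 1.04 and 1.4203 to 30.9, 40.9, 11.9 and 7.04 CPM (log2FC 4.33 ± 0.54, adjusted p = 7.9e-06). Tlr4, the endotoxin receptor itself, rose from 0.789 ± 0.441 to 5.01 ± 0.668 CPM (log2FC 2.64 ± 0.40, adjusted p = 4.8e-05). Tlr1, which pairs with Tlr2, rose most (log2FC 4.55, adjusted p = 4.61e-05). Tlr5, the flagellin receptor, which hepatocytes express, fell from 11.2 ± 2.79 to 1.415 ± 0.645 CPM (log2FC −2.96 ± 0.39, adjusted p = 1.44e-05).

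Cytokine and inflammasome genes rose in 15 of 18 tested (of 20 in the table) members and fell in 1 (14 and 1 without the negative pair). Tnf was at 0, 0, 0.259 and 0.142 CPM in NC, 3 reads in all, and 9.14, 11.1, 2.74 and 2.16 in Chol_CA, a ratio of 57.8 (95% exact interval 19.5 to 282) (adjusted p = 2.09e-05), and Il1b at 1.29, 1.66, 0.778 and 0.426 and 6.76, 17.2, 4.49 and 9.09 CPM (log2FC 3.16 ± 0.63, adjusted p = 0.000804). Nlrp3, the inflammasome sensor, rose from 0.272 ± 0.150 to 5.01 ± 2.87 CPM (log2FC 4.10 ± 0.63, adjusted p = 6.76e-05). Il1rn, the interleukin 1 receptor antagonist, rose from 1.96 ± 0.954 to 26.2 ± 14.0 CPM (log2FC 3.74 ± 0.52, adjusted p = 2.35e-05). Il18 was not called (log2FC 0.64 ± 0.35, adjusted p = 0.213). Il1rap, the shared receptor chain, which hepatocytes express, fell from 194 ± 16.2 to 104 ± 18.1 CPM (log2FC −0.90 ± 0.14, adjusted p = 8.23e-05).

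**Figure D5:**
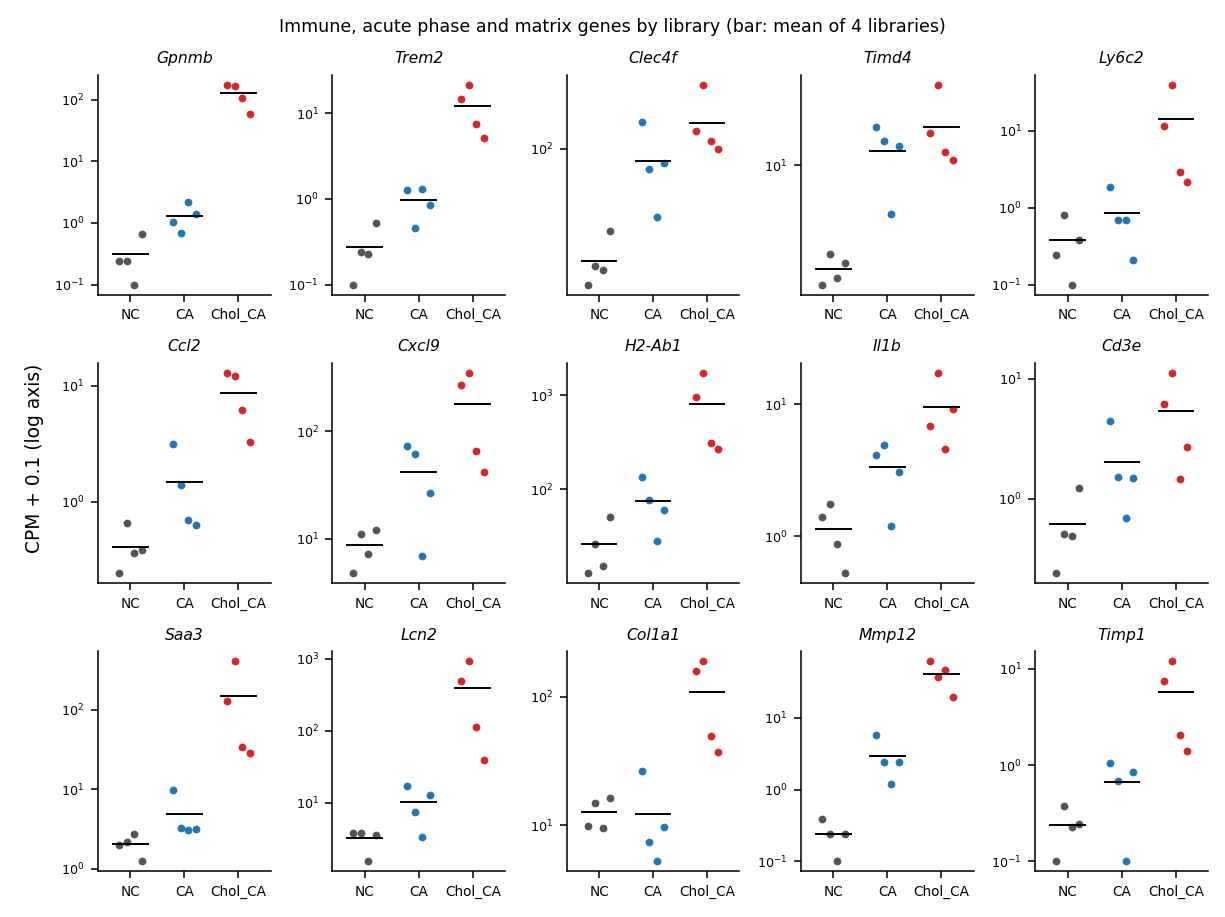
CPM plus 0.1 on a log axis for 15 immune, acute phase and matrix genes; each dot is 1 library of NC, CA or Chol_CA, in the order of their numbers from left to right, and the black bar is the mean of the 4. In most panels the first 2 Chol_CA dots (Chol_CA_0 and Chol_CA_1) lie highest, while for Gpnmb and Mmp12 all 4 lie well above CA.

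Antigen presentation genes of both classes rose. Of 15 tested (of 16 in the table) MHC class II and dendritic cell genes 14 rose, and 12 of 15 did so without the negative pair. Cd74, the invariant chain, was at 34.5, 70.9, 41.6 and 110.4 CPM in NC and 3640.4, 5598, 1228 and 878 in Chol_CA (log2FC 5.46 ± 0.65, adjusted p = 4.68e-06). H2-Ab1 went from 12.9, 26.0, 15.4 and 51.1 to 954, 1722, 312 and 268 CPM (log2FC 4.95 ± 0.70, adjusted p = 2.65e-05). Ciita, the master regulator of the class, went from 0.836 ± 0.419 to 16.7 ± 5.57 CPM (log2FC 4.30 ± 0.48, adjusted p = 2.8e-06). Of 11 class I and peptide loading genes 9 rose, and without the negative pair edgeR called 0, with 6 higher at an unadjusted p under 0.05 and no other tool run on those libraries. In the positive-trend fit 7 rose. The largest rise was Psmb9, an immunoproteasome subunit, at 7.88, 7.75, 6.22 and 14.2 CPM in NC and 42.3, 64.4, 22.8 and 17.2 in Chol_CA (log2FC 2.02 ± 0.53, adjusted p = 0.00733), a call lost without the negative pair (adjusted p = 0.21, log2FC 1.17). H2-D1, a class I heavy chain, rose (log2FC 1.40, adjusted p = 0.000996), a call lost without the negative pair (adjusted p = 0.0674, log2FC 0.78), and its light chain B2m was not called (3138 ± 693 and 4342 ± 1203 CPM; log2FC 0.47 ± 0.25, adjusted p = 0.202).

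Interferon-stimulated genes rose in 19 of 30 members and in 10 without the negative pair, and 5 were higher than in CA. Without the negative pair edgeR called 0 higher than in CA, with 4 higher at an unadjusted p under 0.05 and no other tool run, while in the positive-trend fit 6 were higher. Gbp5, a guanylate-binding protein induced by interferon gamma, was at 0.716, 1.25, 0.648 and 0.852 CPM in NC and 25.0, 29.2, 6.84 and 4.33 in Chol_CA (log2FC 4.21 ± 0.66, adjusted p = 8.35e-05). Ifit1 (6.38 ± 2.21 and 9.22 ± 2.76 CPM; log2FC 0.52 ± 0.34, adjusted p = 0.303) and Rsad2 (log2FC 0.12 ± 0.29, adjusted p = 0.804), induced by type I interferon, were not called.

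Lymphocyte markers rose against NC, and the T and NK cell count varied with the libraries kept. Of 24 T and NK cell markers in the table, 15 passed the filter and 13 rose, 3 of 13 without the negative pair, 10 of 11 in the positive-trend fit and 15 without the positive pair. Cd3e, of the T cell receptor complex, was at 0.143, 0.415, 0.389 and 1.14 CPM in NC and 6.09, 11.003, 1.37 and 2.598 in Chol_CA (log2FC 3.29 ± 0.70, adjusted p = 0.00135), a call lost without the negative pair (adjusted p = 0.077, log2FC 1.91). Cd6, with 1 read over NC, was at 1.85, 2.98, 0.879 and 1.08 CPM in Chol_CA, a ratio of 47.8 (95% exact interval 8.25 to 1919) (adjusted p = 0.00231). Gzmb, granzyme B, was not called (log2FC 1.32 ± 0.81, adjusted p = 0.271). Of 8 tested (of 11 in the table) B and plasma cell markers 5 rose (4 without the negative pair). Cd22, a B cell lectin, had the largest rise (0.797 ± 0.541 to 8.94 ± 2.49 CPM; log2FC 3.46 ± 0.43, adjusted p = 6.92e-06), Igkc, the kappa constant region, went from 2.15, 3.46, 2.72 and 12.1 to 13.2, 36.7, 23.2 and 56.2 CPM (log2FC 2.67 ± 0.52, adjusted p = 0.000695), and Ighm, the IgM heavy chain (log2FC 1.23 ± 0.72, adjusted p = 0.248), was called without NC_3 (adjusted p = 0.0162).

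Collagen genes rose against both NC and CA. Of 29 tested (of 31 in the table) collagens and matrix proteins 20 rose against NC and 22 against CA, and without the negative pair 12 rose against NC. The summed level of the list, in which abundant proteins that hepatocytes make weigh most, was 3846, 3133, 4045 and 4297 CPM in Chol_CA_0 to Chol_CA_3 and 2953 to 4899 in NC. Col1a1, the main fibrillar collagen (chromosome 11, 94936224 to 94953042), was at 9.74, 14.8, 9.47 and 16.2 CPM in NC, 26.6, 7.30, 5.13 and 9.67 in CA and 159, 188, 49.0 and 36.9 in Chol_CA (log2FC 3.11 ± 0.54, adjusted p = 0.00022 against NC). Col3a1 went from 28.1, 33.9, 24.4 and 52.5 to 241, 214, 96.5 and 91.6 CPM (log2FC 2.21 ± 0.35, adjusted p = 8.53e-05), and in both genes the values fell into a higher pair, Chol_CA_0 and Chol_CA_1, and a lower pair above NC. Col6a3 rose from 10.96 ± 1.22 to 29.4 ± 7.93 CPM (log2FC 1.422 ± 0.22, adjusted p = 8.19e-05). Lox, which crosslinks collagen, rose from 0.525 ± 0.313 to 4.06 ± 2.40 CPM (log2FC 2.92 ± 0.52, adjusted p = 0.000268). Fn1, fibronectin, which hepatocytes secrete, was not called (2307 ± 895 and 1544 ± 599 CPM; log2FC −0.58 ± 0.34, adjusted p = 0.248).

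Matrix-degrading enzymes and their inhibitors rose in 10 of 15 tested (of 22 in the table) genes (5 of 14 without the negative pair, 8 of 13 in the positive-trend fit). Mmp12, macrophage elastase (chromosome 9, 7344381 to 7369499), was at 0.286, 0.138, 0 and 0.142 CPM in NC, 5.64, 2.36, 1.09 and 2.34 in CA and 61.3, 36.8, 47.0 and 19.3 in Chol_CA (log2FC 8.05 ± 0.70, adjusted p = 2.13e-07 against NC; log2FC 3.86 ± 0.46, adjusted p = 1.71e-05 against CA). Mmp7, matrilysin, went from 0.132 ± 0.183 to 2.98 ± 1.51 CPM (log2FC 4.29 ± 0.78, adjusted p = 0.000319), Timp1, the inhibitor that marks scarring livers, from 0, 0.277, 0.130 and 0.142 to 7.42, 11.8, 1.954 and 1.299 CPM (log2FC 5.18 ± 0.88, adjusted p = 0.000179), and the metalloproteinase Mmp19 was not called (log2FC 0.027 ± 0.16, adjusted p = 0.928). Of 24 stellate cell and TGF-beta genes 11 rose (7 without the negative pair, 14 in the positive-trend fit). Vim, vimentin, rose most (20.4 ± 9.54 to 123 ± 93.6 CPM; log2FC 2.59 ± 0.44, adjusted p = 0.000186). Tgfb1, the main fibrogenic cytokine, went from 6.44, 8.03, 6.48 and 12.1 to 42.4, 61.9, 22.4 and 22.6 CPM (log2FC 2.17 ± 0.32, adjusted p = 3.5e-05). Among defining markers of stellate cells, Reln, reelin, was not called (53.7 ± 6.21 and 54.2 ± 19.9 CPM; log2FC 0.016 ± 0.24, adjusted p = 0.972). Pdgfrb, their PDGF receptor, rose (log2FC 1.04, adjusted p = 0.00283) with a call lost without the negative pair (adjusted p = 0.055, log2FC 0.84). Ctgf, a TGF-beta target, was not called (log2FC −0.12 ± 0.35, adjusted p = 0.852).

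Some duct and endothelial markers rose. Of 17 tested (of 21 in the table) markers of bile ducts and the ductular reaction 6 rose (3 without the negative pair). The duct keratins Krt7 (log2FC −0.065 ± 0.51, adjusted p = 0.944) and Krt19 (log2FC −0.55 ± 0.53, adjusted p = 0.509) were not called. Spp1, osteopontin, of duct cells and macrophages, rose from 36.9, 73.4, 45.9 and 82.7 to 315, 334, 193 and 102 CPM (log2FC 1.98 ± 0.37, adjusted p = 0.000397). Tff3, a mucosal peptide, rose most (log2FC 2.12, adjusted p = 0.0121) and lost its call without Chol_CA_1 (adjusted p = 0.0803, log2FC 1.46), in the positive-trend fit (adjusted p = 0.121, log2FC 1.40) and without the negative pair (adjusted p = 0.108, log2FC 1.56). Prom1 (CD133), a progenitor marker, stood at 1.54 ± 0.689 CPM in Chol_CA, 1.91 ± 1.86 in NC and 37.4 ± 17.3 in CA (log2FC −4.58 ± 0.53, adjusted p = 1.18e-05 against CA). Of 22 sinusoidal and vascular endothelial markers 5 rose against NC, 6 without the negative pair and 16 in the positive-trend fit. Against CA edgeR called none, with 3 higher at an unadjusted p under 0.05, and DESeq2 called 2 higher. Kdr, the VEGF receptor, was at 33.7, 40.7, 37.5 and 51.3 CPM in NC and 9.94, 30.3, 61.4 and 64.5 in Chol_CA (log2FC 0.031 ± 0.38, adjusted p = 0.966). Vwf, von Willebrand factor, was not called (log2FC −0.30 ± 0.32, adjusted p = 0.548). Lyve1, of sinusoids and lymphatics, had the largest rise (log2FC 1.31, adjusted p = 0.0347). Lyve1 lost its call without any 1 of NC_0, NC_2, Chol_CA_1, Chol_CA_2 and Chol_CA_3 (adjusted p 0.0543 to 0.138, log2FC 0.95 to 1.31), with no filter (adjusted p = 0.0752, log2FC 1.25), in a fit of both diets alone (adjusted p = 0.116, log2FC 1.34) and without the positive pair (adjusted p = 0.276, log2FC 0.72).

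Cell cycle genes rose in 18 of 35 tested (of 36 in the table) members, in 4 of 34 without the negative pair and in 29 without the positive pair. Mki67, a marker of cycling cells, was at 11.7, 1.66, 2.20 and 1.99 CPM in NC and 32.6, 25.0, 12.1 and 11.5 in Chol_CA (log2FC 2.20 ± 0.55, adjusted p = 0.00499), a call lost in the positive-trend fit (adjusted p = 0.334, log2FC 1.18) and without the negative pair (adjusted p = 0.134, log2FC 1.45). Mcm5, of the replicative helicase, was at 1.86, 1.11, 2.33 and 1.56 and 12.98, 8.14, 6.25 and 3.25 CPM (log2FC 2.13 ± 0.41, adjusted p = 0.000601). Cdkn1a, the inhibitor p21, rose from 4.90 ± 5.10 to 28.9 ± 11.9 CPM (log2FC 2.56 ± 0.55, adjusted p = 0.00144), with CA at 25.5 ± 18.8 CPM. Bub1, of the spindle checkpoint, had the largest rise (log2FC 3.19, adjusted p = 0.00315). Of the 19 markers of tissues other than liver in the table, 5 passed the filter and 8 had no read in NC or Chol_CA. The list had 2 called falls, the larger in Cela1, an elastase of the pancreas (log2FC −1.08, adjusted p = 0.0221). The lowest log2 fold change of the list, −4.01, was that of a member that was not called. Cela1 lost its call without any 1 of NC_3, Chol_CA_0 and Chol_CA_2 (adjusted p 0.0532 to 0.0806, log2FC −1.06 to −0.85), in a fit of both diets alone (adjusted p = 0.064, log2FC −1.06) and without the positive pair (adjusted p = 0.177, log2FC −0.68).

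The 10 largest rises and 10 largest falls against NC, taken among called genes with a mean of at least 5 CPM in either diet and no overlap between their libraries, add several names. Ubd, a ubiquitin-like modifier induced by TNF and interferon gamma (chromosome 17, 37193892 to 37196095), had the largest rise, to 109.6, 229, 19.0 and 4.87 CPM from 0.138 ± 0.116 (log2FC 9.19 ± 1.35, adjusted p = 4.06e-05). The CA libraries, at 6.46, 2.94, 0.691 and 4.14 CPM, overlapped Chol_CA. Acod1, which makes itaconate in activated macrophages, rose from 0.134 ± 0.155 to 38.5, 52.0, 6.84 and 3.14 CPM (log2FC 7.35 ± 1.11, adjusted p = 5.03e-05). Nos2, inducible nitric oxide synthase, had no reads in NC and 11.8, 13.5, 1.56 and 1.19 CPM in Chol_CA, and against the same floor it was at least 63.2-fold higher, or at least 41.4-fold without Chol_CA_1. H2-M2, a class I-like gene of dendritic cells, had 3 reads over NC and 17.4, 18.7, 7.13 and 5.20 CPM in Chol_CA, a ratio of 112 (95% exact interval 38.1 to 546) (adjusted p = 1.64e-06). Among the falls, Ppp1r3g, a glycogen-targeting subunit of protein phosphatase 1, went from 13.5, 21.3, 29.8 and 27.7 to 1.19, 0.344, 0.391 and 0.216 CPM (log2FC −5.45 ± 0.48, adjusted p = 2.37e-07). Raet1d, a ligand of the NK cell receptor NKG2D, went from 5.80 ± 1.34 to 0.179 ± 0.145 CPM (log2FC −4.97 ± 0.68, adjusted p = 1.89e-05). Chrna4, a nicotinic receptor subunit, fell from 23.0 ± 24.4 to 0.766 ± 0.577 CPM (log2FC −4.85 ± 0.76, adjusted p = 7.56e-05). Acss3, a mitochondrial acyl-CoA synthetase, fell from 10.9 ± 3.67 to 0.727 ± 0.472 CPM (log2FC −3.84 ± 0.47, adjusted p = 6.17e-06). Acot3, a peroxisomal thioesterase, fell from 5.97 ± 3.57 to 0.479 ± 0.746 CPM (log2FC −3.76 ± 1.04, adjusted p = 0.0108), a call lost in the positive-trend fit (adjusted p = 0.0844, log2FC −6.50) and without the positive pair (adjusted p = 0.0924, log2FC −2.75). Gpnmb, Clec4e, Slc2a6, Lyz1, Mmp12 and Lcn2 completed the 10 largest rises and Cyp4a14, Cyp8b1, Cyp4a10, Sqle and Ugt1a5 the 10 largest falls.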

How the data were processed

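Per the labels' protocols, stranded total RNA libraries were made from 100 ng of liver RNA and sequenced as 50 bp single reads. Per the submitters' processing notes reads were aligned with STAR 2.6.1c to mm10. The deposited values are raw read counts for 34436 gene symbols, of which 12697 have no read in the 20 libraries used. Total counts were 7598660 to 8215500 in NC, 6750266 to 8886641 in Chol_CA and 7850495 to 10244277 in CA. Columns were matched to diets by name, and 3 columns that match no labelled diet were not used. A sample titled as the sucrose diet (HS) carries the chow label. The columns named HS stayed with HS, and which of them, if any, holds that sample cannot be told. A further labelled diet, sucrose with cholesterol and cholic acid, was not analysed here.

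Counts were tested with edgeR 4.0.16 (quasi-likelihood test, robust, TMM factors, filterByExpr with a minimum count of 10) in R 4.3.3, with 1 mean per diet over 20 libraries of 5 diets. The Benjamini-Hochberg adjustment covered all 12595 genes tested, and genes were called at an adjusted p under 0.05. Dispersion over all genes came to a common biological coefficient of variation of 0.235. CPM uses TMM-scaled library sizes, and the standard error is the absolute log2 fold change over the square root of F. Transcript lengths, positions and promoters came from GENCODE M21 and RefSeq (GRCm38). The length trend is the slope over 11977 genes. Named genes were the 10 largest rises and falls under the limits given in the text, the largest called rise and fall of each list, about 2 to 6 further genes marked in each list, and the genes whose promoters are described; results of some genes are not reported here. The comparison, the lists and the marked genes were chosen with earlier results of these data known. Alternatives were DESeq2 1.42.0, RLE factors, other filters, other sets of libraries and a term for the length trend. The fit was also run on simulated counts with known changes. These counts varied between libraries of a diet only by the fitted dispersion, so that run does not cover the uneven Chol_CA libraries.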

Additional observations from a re-analysis of the deposited data

Results flagged for a closer look

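Values are listed here where 1 library of a diet lay so far from the other 3 that its gap to the nearest exceeded Dixon's 95% critical value for 4 samples. This happened in 46 of 493 groups of 4 libraries examined. The critical value stands for about 1 in 20 only where values are independent and normally distributed. Levels of few reads and genes measured in the same libraries do not meet that, so no excess over that rate is read from the 46 values. NC_3, an NC library of negative length trend, had 20 of them, and no explanation was tested. Each value is a CPM with the range of the other 3 libraries of the diet behind it, and a value against 0 in each rests on 1 or 2 reads. CA_0 was above the rest for Hmox1 (43.8 against 23.2 to 26.1). CA_0 was below the rest for Prom1 (11.4 against 45.5 to 46.7). CA_2 was above the rest for Cyp2e1 (4519 against 3098 to 3249) and Cyp7a1 (1.38 against 0.118 to 0.236). Chol_CA_0 was above the rest for Acot3 (1.59 against 0 to 0.229), Cyp4a14 (4.77 against 1.41 to 1.83) and Raet1d (0.397 against 0.0977 to 0.115). Chol_CA_1 was above the rest for Tff3 (7.79 against 1.99 to 2.49). Chol_CA_1 was below the rest for Lamp2 (377 against 572 to 599.7) and Tlr5 (0.458 against 1.62 to 1.86). Chol_CA_2 was above the rest for Selp (1.86 against 0.662 to 0.866). Chol_CA_3 was above the rest for Chrna4 (1.62 against 0.397 to 0.586), Ighm (88.2 against 13.5 to 24.0) and Sult2a8 (412 against 201 to 216). NC_0 was above the rest for Lyz1 (0.143 against 0 in each), Mki67 (11.7 against 1.66 to 2.20) and Orm2 (15.3 against 7.78 to 8.86). NC_1 was above the rest for Ccl5 (1.11 against 0.519 to 0.573) and Egr2 (0.138 against 0 in each). NC_2 was above the rest for Clec4e (0.130 against 0 in each), Krt19 (11.3 against 1.29 to 2.63), Prom1 (4.67 against 0.716 to 1.38), Slc51a (0.130 against 0 in each) and Slc7a11 (0.259 against 0 in each). NC_2 was below the rest for Lcn2 (1.43 against 3.41 to 3.74) and Xbp1 (138 against 192 to 202). NC_3 was above the rest for Apoa1 (19318 against 8828 to 10148), B2m (4167 against 2669.5 to 2911), Cd14 (1.4203 against 0.969 to 1.04), Cd6 (0.142 against 0 in each) and Chrna4 (59.7 against 10.02 to 12.3). NC_3 was above the rest also for Clec7a (2.84 against 1.29 to 1.52), Col6a3 (12.8 against 10.2 to 10.5), Cox4i1 (520.0 against 268 to 294), Cyp2b9 (1.14 against 0.277 to 0.389) and Gstt3 (78.4 against 28.9 to 31.6). NC_3 was above the rest also for Ighm (43.2 against 5.06 to 7.30), Igkc (12.1 against 2.15 to 3.46), Il18 (8.38 against 4.99 to 5.45), Lgals3 (2.98 against 1.11 to 1.17) and Pdk4 (21.9 against 12.9 to 13.5). NC_3 was above the rest also for Pemt (397 against 254 to 273), Pkm (8.10 against 3.05 to 3.44) and Pltp (383 against 89.4 to 108). NC_3 was below the rest for Abcb4 (223 against 350.3 to 359) and Bhlhe40 (61.6 against 252 to 287).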

How the results depend on the processing

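Leaving out 1 library at a time gave 1490 to 2052 genes higher and 890 to 1524 lower against NC, and 960 to 1939 higher and 718 to 1279 lower against CA. The low ends against CA came without CA_2 (960 higher) and CA_3 (1095 higher). In a fit of the compared diets alone 701 genes were lower against NC, and 1063 were higher and 523 lower against CA. Without Chol_CA_0 and Chol_CA_1, chosen after the data were seen, 1127 were higher and 622 lower against NC, and 716 higher and 522 lower against CA. Among libraries of positive length trend alone 1716 were lower against CA. Fewer libraries also mean fewer degrees of freedom, and the cause of these shifts was not tested otherwise. The other counts of all genes stayed within 1.5 times. Of 177 named genes called against NC, 145 kept their call and direction in every fit that tested them. The other 32 are given with their values beside their results. Against CA 19 of 20 did, and the exception was Sqle. Some named genes given above as not called against NC were called in other fits. There were 7 such genes in the positive-trend fit and 5 without the positive pair. With a term for the length trend there were 3, and in a fit of both diets alone 1. No paired analysis was possible because the columns of the table cannot be matched to the replicate numbers of the labels. At these depths, genes with 3 or fewer reads over a diet give only bounds or wide ratios.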
